A study of Rattus norvegicus with 10 samples.

Results

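The genes that make, carry, bind and break down retinoic acid were read in the hypothalamus of rats fed solid chow or powdered feed. The group held 9 genes, which are Rdh10, Aldh1a1, Aldh1a2, Aldh1a3, Stra6, Rbp4, Crabp1, Crabp2 and Cyp26b1. Their members on the array were all probe sets that its annotation gives to a single one of these genes, and there were 15 of them among 31042 probe sets. A probe set is a set of short probes for one transcript, and 20826 probe sets named a single gene, 14217 genes in all. The study listed several of these genes under a retinoic acid term among its own calls on the same rats, so the counts below are no independent evidence of a direction.

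Retinoic acid is the active form of vitamin A and switches genes on or off through nuclear receptors. Retinol travels in blood on Rbp4 and enters cells through the membrane receptor Stra6, is oxidized to retinal by enzymes such as Rdh10, and retinal is oxidized to retinoic acid by the Aldh1a enzymes. Crabp1 and Crabp2 bind retinoic acid inside the cell, and Cyp26b1 breaks it down. In the brain, the meninges, the membranes that cover it, are a known site of retinoic acid synthesis.

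All 10 rats were male Wistar rats of 4 weeks of age, 5 on solid chow (C group) and 5 on powdered feed (P group). They started at 3 weeks of age with 2 days of powdered feed for both groups, and then had their own feed for 8 days, with housing that left nothing else to chew. The comparison asks whether chewing solid feed changes these transcripts. Total RNA of each hypothalamus, a block of tissue with all its cell types, was hybridized to 1 Affymetrix rat genome array per rat, and the values are log2 signals. Neuropeptide genes that define the hypothalamus were bright, with a mean log2 signal of 12.97 for Pmch, 11.89 for Avp, 10.74 for Hcrt and 10.42 for Oxt over the 10 rats, while Pomc (6.75) and Ghrh (7.23) were flat. In bulk tissue, fewer cells of a type and less RNA per cell cannot be told apart.

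Most probe sets hardly varied. The standard deviation (SD) over the 10 rats was below 0.001 for 28736 probe sets (92.6%), which are called flat here, and above 0.1 for 1391 (4.48%), which are called varying. Of the 15 retinoic acid probe sets, 9 varied and 6 were flat. The varying ones belong to 7 genes, and Rdh10 and Aldh1a3 had flat probe sets only. Correlations between whole arrays lay between 0.9970 and 0.9991. Chow 1 and Chow 4 had the highest levels of leptomeningeal markers, 0.88 and 0.67 above the mean of all rats, so differences are also given without them. Chow 1 also stood apart in markers of cortex and hippocampus neurons, at 0.69, where Powder 5 came next at 0.07. For markers of hypothalamic neurons, of which 9 of 14 measured genes varied, Chow 1 was the lowest rat, at -0.20. These markers did not move as one. Hcrt, Pmch, Crh, Trh, Sst and Gal were lowest in Chow 1 and Oxt was not. Npy was highest in it (9.98), and Avp (12.33) was below Powder 5 only.

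For several of these genes, rats of one diet differed more from each other than the diets did. Aldh1a2, Crabp2, Rbp4 and Cyp26b1 were high in the same 4 rats, Chow 1, Chow 4, Powder 2 and Powder 3, which are 2 rats of each diet. Aldh1a1, Stra6 and Crabp1 each ordered the rats in another way. Upstream sequences of the 4 genes that shared the high rats, and of Stra6, which did not, are printed here for comparison of their letters. They run from 250 bases before the annotated transcription start to 50 bases after it, in RefSeq's table for the GRCr8 build. Capitals mark the letters found by a motif search, which are the Sp1 box, the TATA box and a half-site of retinoic acid receptors. The letters of a motif on the opposite strand appear as their reverse complement.
Aldh1a2 (chr8:80758391-80758690, plus strand): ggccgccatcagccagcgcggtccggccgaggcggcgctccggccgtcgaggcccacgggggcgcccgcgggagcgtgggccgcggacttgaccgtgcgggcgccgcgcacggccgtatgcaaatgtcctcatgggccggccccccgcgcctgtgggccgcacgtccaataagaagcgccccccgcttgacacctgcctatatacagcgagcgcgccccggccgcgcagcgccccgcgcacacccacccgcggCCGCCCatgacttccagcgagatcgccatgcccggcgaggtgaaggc
Crabp2 (chr2:175714612-175714911, plus strand): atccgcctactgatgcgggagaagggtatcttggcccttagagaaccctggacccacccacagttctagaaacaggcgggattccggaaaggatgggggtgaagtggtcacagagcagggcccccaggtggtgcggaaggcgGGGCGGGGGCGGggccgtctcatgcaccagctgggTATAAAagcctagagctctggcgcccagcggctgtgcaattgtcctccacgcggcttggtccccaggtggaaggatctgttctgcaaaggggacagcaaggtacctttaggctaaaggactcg
Rbp4 (chr1:245313502-245313801, minus strand): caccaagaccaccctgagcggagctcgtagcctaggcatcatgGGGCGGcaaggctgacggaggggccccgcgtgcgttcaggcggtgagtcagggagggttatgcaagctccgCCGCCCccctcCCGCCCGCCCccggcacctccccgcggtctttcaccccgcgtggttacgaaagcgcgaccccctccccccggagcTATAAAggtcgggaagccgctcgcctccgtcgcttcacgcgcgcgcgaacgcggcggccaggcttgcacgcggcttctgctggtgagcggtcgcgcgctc
Cyp26b1 (chr4:118616127-118616426, minus strand): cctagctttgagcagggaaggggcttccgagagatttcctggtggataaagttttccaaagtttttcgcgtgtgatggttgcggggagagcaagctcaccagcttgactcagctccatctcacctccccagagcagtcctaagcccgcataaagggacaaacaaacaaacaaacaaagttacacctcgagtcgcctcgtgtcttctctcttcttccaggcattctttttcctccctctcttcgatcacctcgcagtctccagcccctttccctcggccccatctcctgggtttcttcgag
Stra6 (chr8:67444507-67444806, plus strand): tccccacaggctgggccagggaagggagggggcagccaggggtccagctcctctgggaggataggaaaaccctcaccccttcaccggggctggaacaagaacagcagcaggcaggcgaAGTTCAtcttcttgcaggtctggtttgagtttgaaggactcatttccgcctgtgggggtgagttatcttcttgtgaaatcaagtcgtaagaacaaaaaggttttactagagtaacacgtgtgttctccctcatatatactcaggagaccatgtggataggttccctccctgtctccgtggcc

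The promoter table held 8 of the 9 genes, all but Rdh10. The G and C content was 76.0% for Aldh1a2, 71.7% for Rbp4, 61.0% for Crabp2, 53.7% for Stra6 and 52.7% for Cyp26b1, and its median over all promoters of the table was 51.7%. For the promoters not printed it was 74.3% for Aldh1a3, 70.7% for Crabp1 and 48.3% for Aldh1a1. Retinoic acid receptors bind pairs of half-sites in direct repeat, of which AGGTCA and AGTTCA were searched here. Other spellings of a half-site were not searched. AGGTCA, searched on both strands, was in 0 of the 8 promoters and in 16.2% of all 33469. AGTTCA was in 1 of the 8, that of Stra6 at position -132 from the start, and in 14.5% of all. A direct repeat of 2 of these searched half-sites with a spacing of 1, 2 or 5 bases was in 0 of the 8 and in 0.176% of all. The Sp1 box GGGCGG, searched on both strands, was in 5 of the 8 and in 33.1% of all. It was in Aldh1a2, Crabp2 and Rbp4 but not in Cyp26b1. Aldh1a3 and Crabp1, which did not share the high rats, had it too. The TATA box TATAAA, searched on the sense strand, was in 2 of the 8, at position -50 of Rbp4 and -73 of Crabp2, and in 8.8% of all. The promoters of the 4 genes that shared the high rats thus had no searched motif in common. A match is a description of letters, and the absence of one says nothing about a factor.

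Rdh10, which oxidizes retinol to retinal in the first step of synthesis, had flat probe sets only. Its probe set 1384391_at had a mean log2 signal of 7.80, with an SD of 0.00024. The other, 1390079_at, lay at 6.28. The fit gave 1384391_at an unadjusted limma p of 0.0248 (adjusted p = 1.0), for a difference of -0.00031. Aldh1a3, one of the enzymes that make retinoic acid, lay at 6.63 with an SD of 0.00019. These flat values cannot show whether the transcripts changed, since the summarization leaves a probe set flat where its probes share no signal.

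Aldh1a1, which oxidizes retinal to retinoic acid, differed between rats without clear groups. Its log2 signal in Chow 1 to Chow 5 was 8.81, 8.63, 9.30, 9.08 and 8.80, and in Powder 1 to Powder 5 it was 8.33, 8.40, 8.79, 8.88 and 9.03. Chow 3 was highest, Powder 1 and Powder 2 were below every C rat, and the other 3 P rats lay within the range of the C group.

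The C group had a mean of 8.92 ± 0.26 for Aldh1a1 and the P group one of 8.68 ± 0.31 (SD, n = 5), a difference of 0.24 with a standard error (SE) of 0.17. Every difference is given in log2 units as C minus P. Rank products, the study's test, rank probe sets by fold change in each of the 25 possible C and P pairs and estimate a false discovery rate (FDR). They called Aldh1a1 higher in the C group, at an FDR of 0.00657. Limma, which scales a difference by the spread between rats, did not call it (adjusted p = 1.0), and the exact two-sided permutation test over all assignments of 5 and 5 rats gave p = 0.206.

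Aldh1a2, the enzyme that makes retinoic acid in the meninges and in the embryo, had the widest range of the synthesis genes. Its log2 signal was 8.68, 7.56, 7.25, 8.46 and 7.46 in Chow 1 to Chow 5 and 7.18, 7.98, 8.24, 7.17 and 7.50 in Powder 1 to Powder 5. Chow 1 and Chow 4 were above all P rats, Powder 2 and Powder 3 were above the other 3 C rats, and the remaining 6 rats lay together between 7.17 and 7.56.

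Aldh1a2 differed by 0.26 between the diets (SE 0.35, 5 rats per group) and was called higher by rank products at an FDR of 0.00617. The SE was larger than the difference, and the exact permutation test gave p = 0.468. The call was lost without Chow 1, when the difference was 0.07, and without Chow 4. Without both rats the difference was -0.20 and not called, in a comparison of 3 C rats with 5 P rats. Those of Aldh1a1 and Stra6 stayed at 0.22 to 0.24 without both, where neither was called, and Crabp1 at -0.10, called lower.

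**Figure D1:**
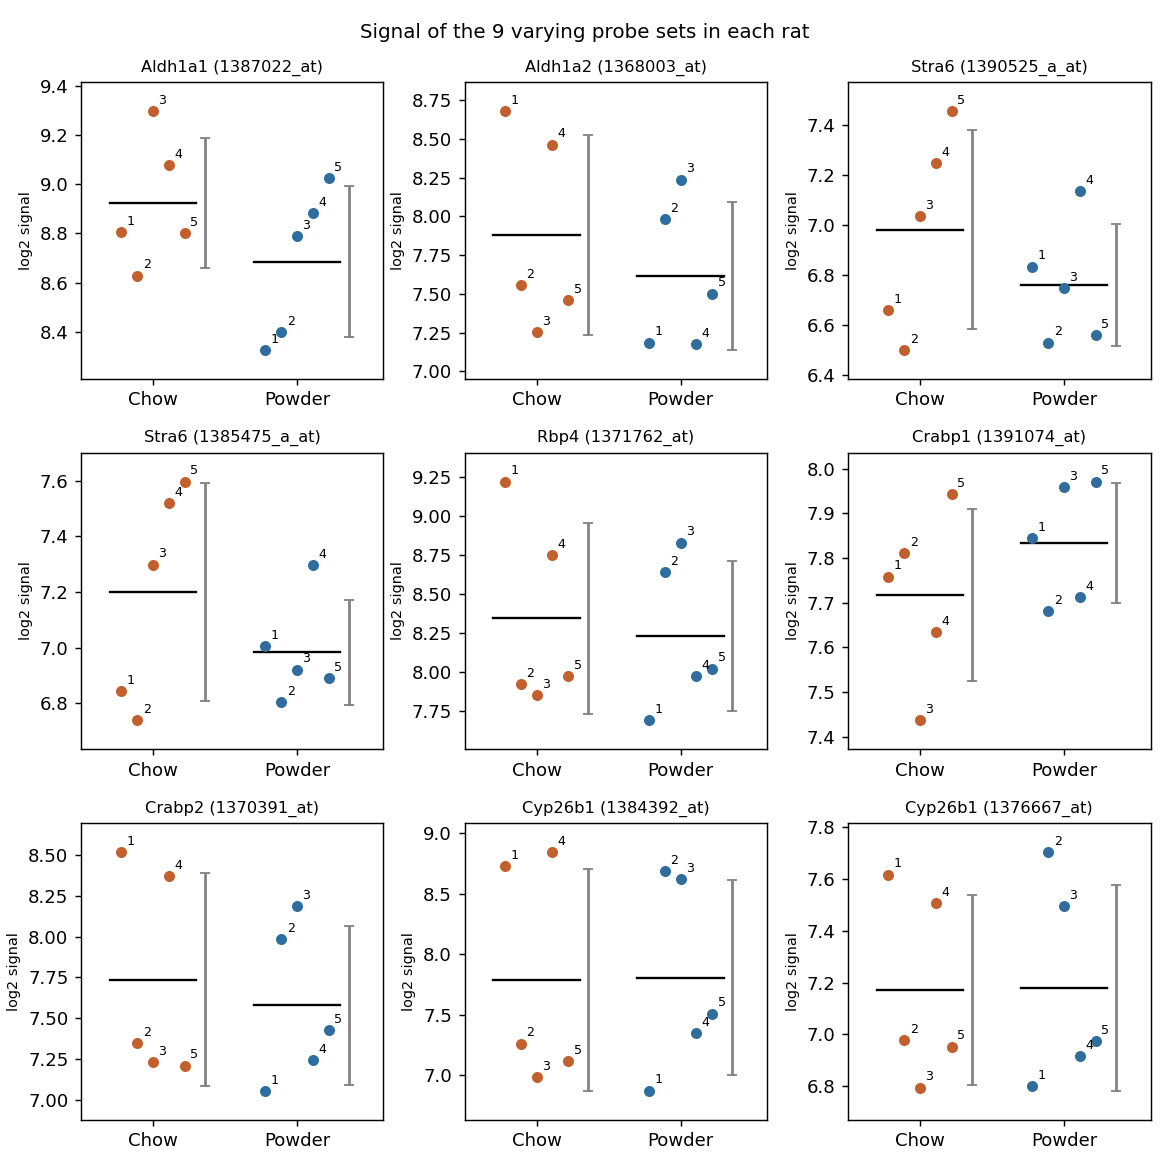
Log2 signal (y axis) of the 9 varying probe sets in each rat, with Chow rats on the left and Powder rats on the right of each panel. Points are rats with their replicate number, black lines are group means and grey bars span 1 SD on either side (5 rats per group). In the panels of Aldh1a2, Rbp4, Crabp2 and Cyp26b1 the points 1 and 4 of Chow and 2 and 3 of Powder lie above all the others.

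Stra6, the receptor that takes up retinol from Rbp4, had 5 probe sets, of which 2 varied and 3 were flat at 7.39, 7.30 and 6.59. Probe set 1390525_a_at read 6.66, 6.50, 7.04, 7.25 and 7.46 in Chow 1 to Chow 5. In Powder 1 to Powder 5 it read 6.83, 6.53, 6.75, 7.13 and 6.56. Chow 5, Chow 4, Powder 4 and Chow 3 were highest in this order, and Chow 1, high for Aldh1a2, was among the low rats.

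Probe set 1385475_a_at ordered the rats almost alike, with a Pearson r of 0.98 between the 2 sets over the 10 rats. Stra6 differed by 0.22 between the diets with either probe set (SE 0.20 and 0.19), and rank products called both higher in the C group, at FDRs of 0.00965 and 0.00978. The exact permutation p was 0.333 and 0.317, and limma called neither. For both sets the call was lost without Chow 4 or without Chow 5, for 1385475_a_at also without Chow 3, and the difference was 0.10 and 0.12 without Chow 5.

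Rbp4, the retinol carrier, read 9.22, 7.92, 7.86, 8.75 and 7.97 in Chow 1 to Chow 5. In Powder 1 to Powder 5 it read 7.69, 8.64, 8.83, 7.97 and 8.02. The 4 rats with high Aldh1a2 lay between 8.64 and 9.22 and the other 6 between 7.69 and 8.02. The difference between diets was 0.11 (SE 0.34) and was not called in either direction, at FDRs of 0.126 for higher and 0.107 for lower. Without Chow 1 and Chow 4 it was -0.32 and called lower.

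Crabp2, which carries retinoic acid to its receptors in the nucleus, read 8.52, 7.35, 7.23, 8.37 and 7.21 in Chow 1 to Chow 5. In Powder 1 to Powder 5 it read 7.05, 7.99, 8.19, 7.24 and 7.43. Again Chow 1, Chow 4, Powder 2 and Powder 3 were high, from 7.99 to 8.52, and the other 6 rats reached at most 7.43. Rank products called Crabp2 higher in the C group at an FDR of 0.0396, for a difference of 0.16 (SE 0.35, exact permutation p = 0.627). Without Chow 1 and Chow 4 the difference was -0.32 and called lower, and it was -0.04 without Chow 1 alone and -0.0020 without Chow 4 alone. With all 4 high rats left out, Crabp2 and Rbp4 each differed by 0.02 and neither was called.

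Crabp1, the other binding protein of retinoic acid in the cytoplasm, varied least of the varying members, with an SD of 0.17. It read 7.76, 7.81, 7.44, 7.63 and 7.94 in Chow 1 to Chow 5 and 7.84, 7.68, 7.96, 7.71 and 7.97 in Powder 1 to Powder 5. Chow 3 and Chow 4 were below every P rat, and the other 3 C rats lay within the range of the P group. The difference was -0.12 (SE 0.10), called lower by rank products at an FDR of 0.0168 and not by limma (exact permutation p = 0.302). It was called lower in 5 of the 10 fits that each left out 1 rat, and it was -0.05 without Chow 3.

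Cyp26b1, the enzyme that breaks retinoic acid down, had the largest SD of the 15 probe sets, 0.82. Probe set 1384392_at read 8.73, 7.26, 6.98, 8.84 and 7.12 in Chow 1 to Chow 5. In Powder 1 to Powder 5 it read 6.87, 8.69, 8.62, 7.34 and 7.51. There was no rat between 7.51 and 8.62, a gap of 1.11, with Chow 1, Chow 4, Powder 2 and Powder 3 above it.

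Cyp26b1 had nearly equal means in both groups, 7.79 ± 0.92 and 7.81 ± 0.81 (SD, n = 5). Its difference was -0.02 (SE 0.53, exact permutation p = 0.944), and rank products still called it lower at an FDR of 0.0140, with 0.0509 for the other direction. Its sign turned when single rats were left out, from -0.28 without Chow 4 to 0.20 without Powder 2, and each of these fits called it in 1 direction. Probe set 1376667_at, with an r of 0.98 to the other, read 7.62, 6.98, 6.79, 7.51 and 6.95 in Chow 1 to Chow 5 and 6.80, 7.71, 7.50, 6.92 and 6.97 in Powder 1 to Powder 5. It differed by -0.0082 (SE 0.23) and was not called. Without Chow 1 and Chow 4, which leaves the 2 high P rats in the comparison, the 2 sets differed by -0.69 and -0.27 and both were called lower. With all 10 rats, the C minus P difference of Cyp26b1 was thus small against the spread between rats of one diet.

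Among all 15 probe sets, rank products called 5 higher in the C group (Aldh1a1, Aldh1a2, both varying sets of Stra6, and Crabp2) and 2 lower (Crabp1 and Cyp26b1), and 8 were not called. Over all 31042 probe sets they called 0.947% higher and 0.821% lower. Among the 1391 varying probe sets, the background that fits the 9 varying members better, they called 20.5% higher and 14.9% lower. The median difference of the 9 varying members was 0.16, beside 0.03 for all varying probe sets. When the test was run on varying probe sets alone, 0 members were called in either direction, and the same held with rank sums. These runs made few calls over all probe sets, 1 higher and 4 lower of 1391 and, with rank sums, 2 higher and 6 lower of 31042, so a count of 0 members says little about the members. Without Chow 1 and Chow 4, 0 members were called higher and 5 lower, where 0.151% and 0.834% of all probe sets were called.

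Limma called 0 of the 15 members and 0.0% of all probe sets, with 1100 probe sets at an unadjusted p below 0.05, 1 of them a member, the flat Rdh10 set. With the exact permutation test the smallest adjusted p over all probe sets was 1.0. With 5 against 5 rats, the smallest possible exact permutation p was 0.0079. Adjustment over 31042 probe sets leaves such a p little room to pass, so this outcome says little. The C and P rats did not separate for any of the 15 members, where 0.151% of all probe sets had every C rat above every P rat and 0.28% the reverse. By role, 2 of the 5 probe sets of the synthesis genes were called higher (Aldh1a1 and Aldh1a2, not Rdh10 or Aldh1a3), as were 2 of the 5 of the receptor Stra6, and the carrier Rbp4 was not called. Of the binding genes, Crabp2 was called higher and Crabp1 lower. The breakdown gene Cyp26b1, at -0.02 and -0.0082, was called lower with 1 of its 2 probe sets.

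**Figure D2:**
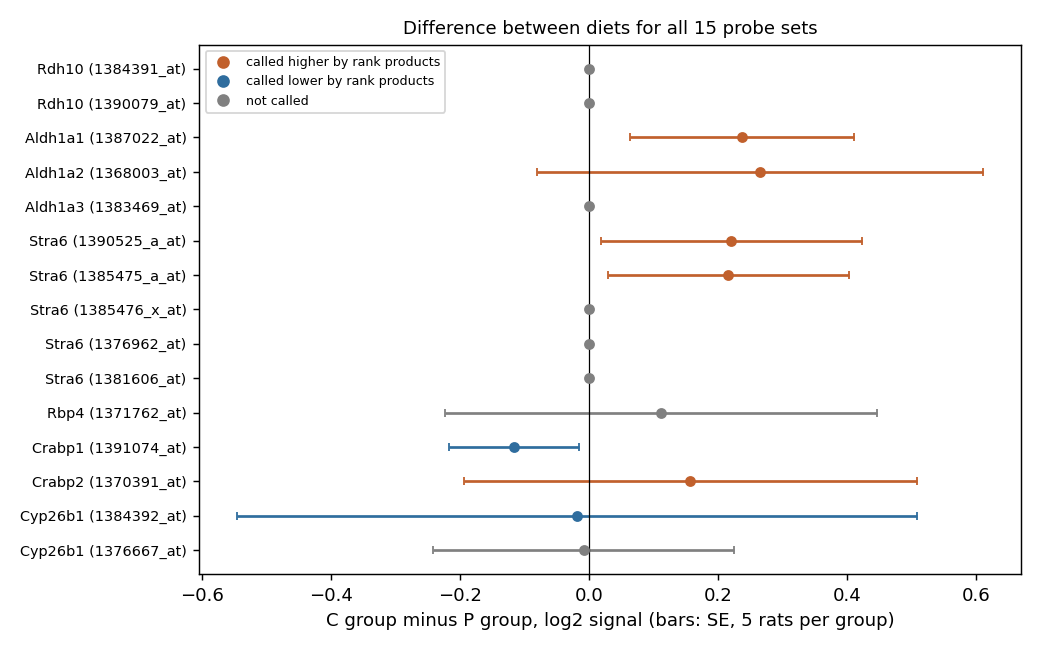
Log2 difference between the C and P groups (x axis) for each of the 15 probe sets (y axis), with bars of 1 SE on either side (5 rats per group). Colours give the rank product calls. The bars of Aldh1a2, Rbp4, Crabp2 and both Cyp26b1 sets cross 0, also where a call was made, and the 6 flat sets sit at 0.

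**Figure D3:**
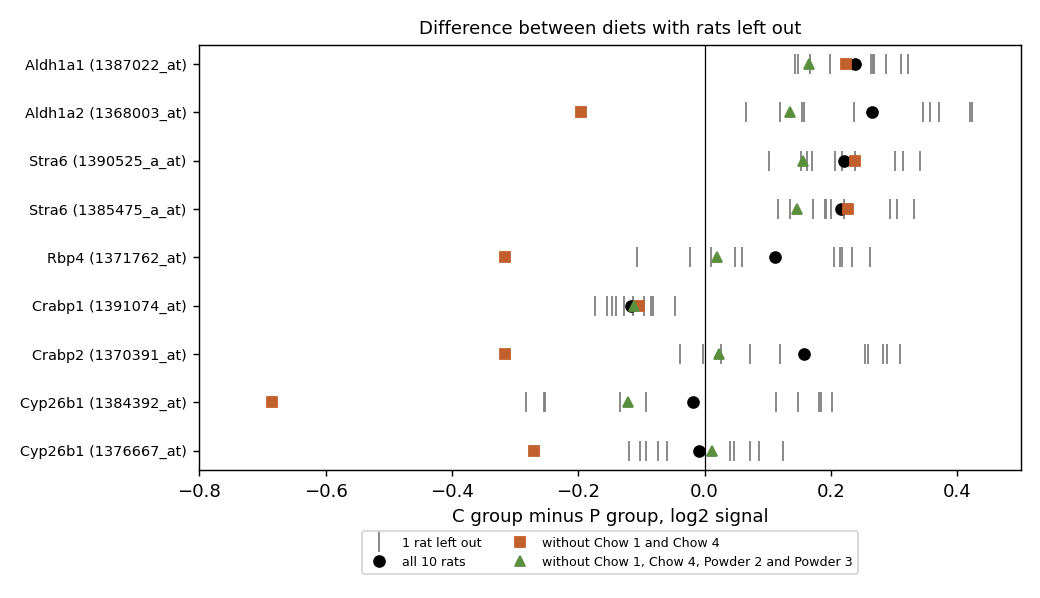
Difference between the groups on the log2 scale (x axis) for the 9 varying probe sets (y axis) with all 10 rats (black points), with 1 rat left out at a time (grey ticks), without Chow 1 and Chow 4 (squares) and without all 4 high rats (triangles). Aldh1a2, Rbp4 and Crabp2 cross 0 without Chow 1 and Chow 4, at -0.20, -0.32 and -0.32, where the 2 high P rats stay in. Without all 4 high rats they lie at 0.13, 0.02 and 0.02, none of them called. Among the squares, Cyp26b1 lies farthest left at -0.69, and Aldh1a1, Stra6 and Crabp1 keep their sign.

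Which of these genes moved together from rat to rat was then compared. The 4 rats formed a group of their own for Rbp4, Crabp2 and both Cyp26b1 sets, in the sense that the gap between the high and the low rats was wider than the range within either. The gap was 1.11 and 0.52 for Cyp26b1, 0.62 for Rbp4 and 0.56 for Crabp2. For Aldh1a2 the same rats were high, and its gap of 0.43 was wider than the range of the 6 low rats (0.38) but not than that of the 4 high ones (0.70). Of the 1391 varying probe sets, 146 split the rats by this rule, and 11 split them into these 4 and the other 6. The genes named among the 11 were Cyp26b1, Rbp4, Crabp2, Slc13a4, Cdh1, Igf2, Mpzl2, Fam180a and Loxl1.

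The 4 rats with high Aldh1a2 signal also had high Crabp2, Rbp4 and Cyp26b1 signal, whereas Crabp1 was not raised in them. Crabp2 stayed closest to Aldh1a2. Each of them spanned 1.47 and 1.51 over the 10 rats, while Crabp2 minus Aldh1a2 in the same rat only ran from -0.25 to 0.07. Aldh1a2 minus Cyp26b1 was -0.70 to -0.05 in the 4 high rats and -0.17 to 0.34 in the other 6, so that Cyp26b1 differed more than Aldh1a2 between these rats. Aldh1a1 did not follow: Aldh1a1 minus Cyp26b1 was -0.29 to 0.23 in the 4 high rats and 1.37 to 2.31 in the other 6.

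Because the rats split, correlations that involve Crabp2, Rbp4 or Cyp26b1 were taken over the 6 low rats only. Among Aldh1a2, Crabp2, Rbp4 and Cyp26b1 they were all positive there, with an r of 0.50 to 0.87 and a Spearman rho of 0.20 to 0.94 over 6 pairs. The highest were Crabp2 with Cyp26b1 (r = 0.87, exact permutation p = 0.0278) and Rbp4 with Cyp26b1 (r = 0.87, exact permutation p = 0.0153). Neither passed the adjustment over the 21 pairs of genes computed, with adjusted p from 0.292 to 0.607 over these 6 pairs by exact permutation. Without the 2 rats farthest from the median, r over the remaining 4 rats ran from 0.32 to 0.96. The other 9 pairs over the 6 rats had an r of -0.49 to 0.53.

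Pairs of Aldh1a1, Aldh1a2, Stra6 and Crabp1 were compared over all 10 rats. Their r ran from -0.38 to 0.40, and 0 of 6 passed. Aldh1a1 with Aldh1a2, which catalyze the same step, had an r of 0.04 and a rho of 0.02 (permutation p = 0.920 and 0.973), and 0.04 without Chow 3 and Powder 1. Aldh1a1 with Stra6 had the highest r, 0.40 (rho 0.43, permutation p = 0.250 and 0.218). Over 10 rats, weaker relations than these tests can call may go unseen.

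**Figure D4:**
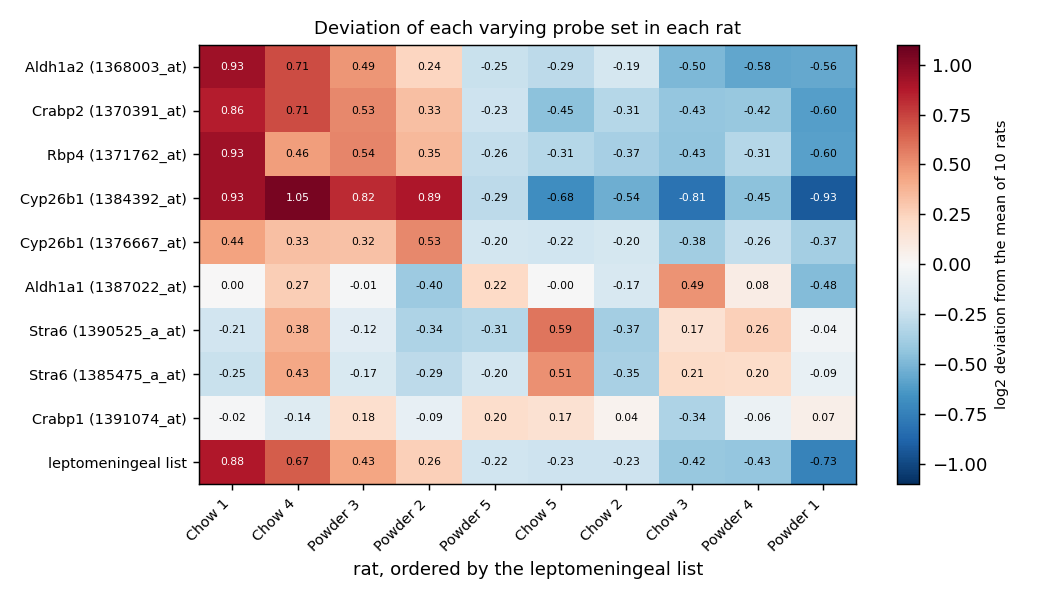
Log2 deviation of each varying probe set from its own mean over the 10 rats (colour and printed value), with probe sets in rows and rats in columns, ordered by the leptomeningeal list of the last row. The upper 5 rows are above 0 in Chow 1, Chow 4, Powder 3 and Powder 2 and below 0 in all other rats, and the rows of Aldh1a1, Stra6 and Crabp1 are not.

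Markers of the leptomeninges, the inner membranes around the brain, moved with the same 4 genes. The list holds collagens, small proteoglycans and transporters of these cells and none of the retinoic acid genes, and 20 of its 21 genes were on the array under a single name. Of these 18 varied, Foxc1 was flat at 6.28, and Bmp5 lay between. Their mean deviation from the average of all rats was 0.88, -0.23, -0.42, 0.67 and -0.23 in Chow 1 to Chow 5 and -0.73, 0.26, 0.43, -0.43 and -0.22 in Powder 1 to Powder 5. For 17 of the 18 varying markers, Chow 1, Chow 4, Powder 2 and Powder 3 were all above the other 6 rats, and 18 of 18 had a higher mean in the C group.

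Aldh1a2 followed this list with an r of 0.99 and a rho of 0.95 over 10 rats. The permutation p was 2e-05, or 0.0014 after adjustment over 70 pairs of a gene and a marker list. The lists were chosen with earlier results of these data known, so this p is not that of an independent test. Without Chow 1 and Chow 4, the 2 rats farthest from the median, r was 0.97, and with the group means removed it was 0.99. Over the 6 low rats alone it was 0.84 (rho 0.77, exact permutation p = 0.0389, not adjusted). Over those 6 rats the list had an r of 0.88 with Rbp4, 0.84 with Crabp2 and 0.69 with Cyp26b1, none of which passed (adjusted exact permutation p = 0.258, 0.258 and 0.440). Their rho was 0.66, 0.60 and 0.60. Over the 4 rats left without Powder 1 and Powder 5, r was 0.31, 0.39 and 0.06. The list of cortex and hippocampus neurons, of which 3 of 9 measured genes varied, had a higher r with each of these genes over the same rats, at 0.96, 0.93 and 0.91 (rho 0.77, 0.83 and 0.83), and did not pass either (adjusted exact permutation p = 0.117, 0.162 and 0.117). Without Powder 1 and Powder 5, the 2 farthest from the median, these were 0.70, 0.57 and 0.78. Among the low rats the relation was thus not particular to the leptomeningeal genes. Aldh1a1 (r = 0.12), Stra6 (-0.13) and Crabp1 (-0.03) did not pass with the list over 10 rats.

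The list stood 0.27 higher in the C group on average, beside 0.26 for Aldh1a2, 0.16 for Crabp2 and 0.11 for Rbp4. Cyp26b1 did not share this, at -0.02 and -0.0082 for its probe sets. What part the leptomeningeal markers had in these differences was not tested. Aldh1a2 also passed with the list of ependyma, the cells that line the ventricles (r = -0.77, adjusted permutation p = 0.0343, 0.161 for the rho of -0.83). With astrocytes it had an r of 0.78 (adjusted permutation p = 0.0385, 0.510 for the rho of 0.66). Without the 2 farthest rats these were -0.69 and 0.62. Those 3 were the pairs past the threshold among the 70.

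**Figure D5:**
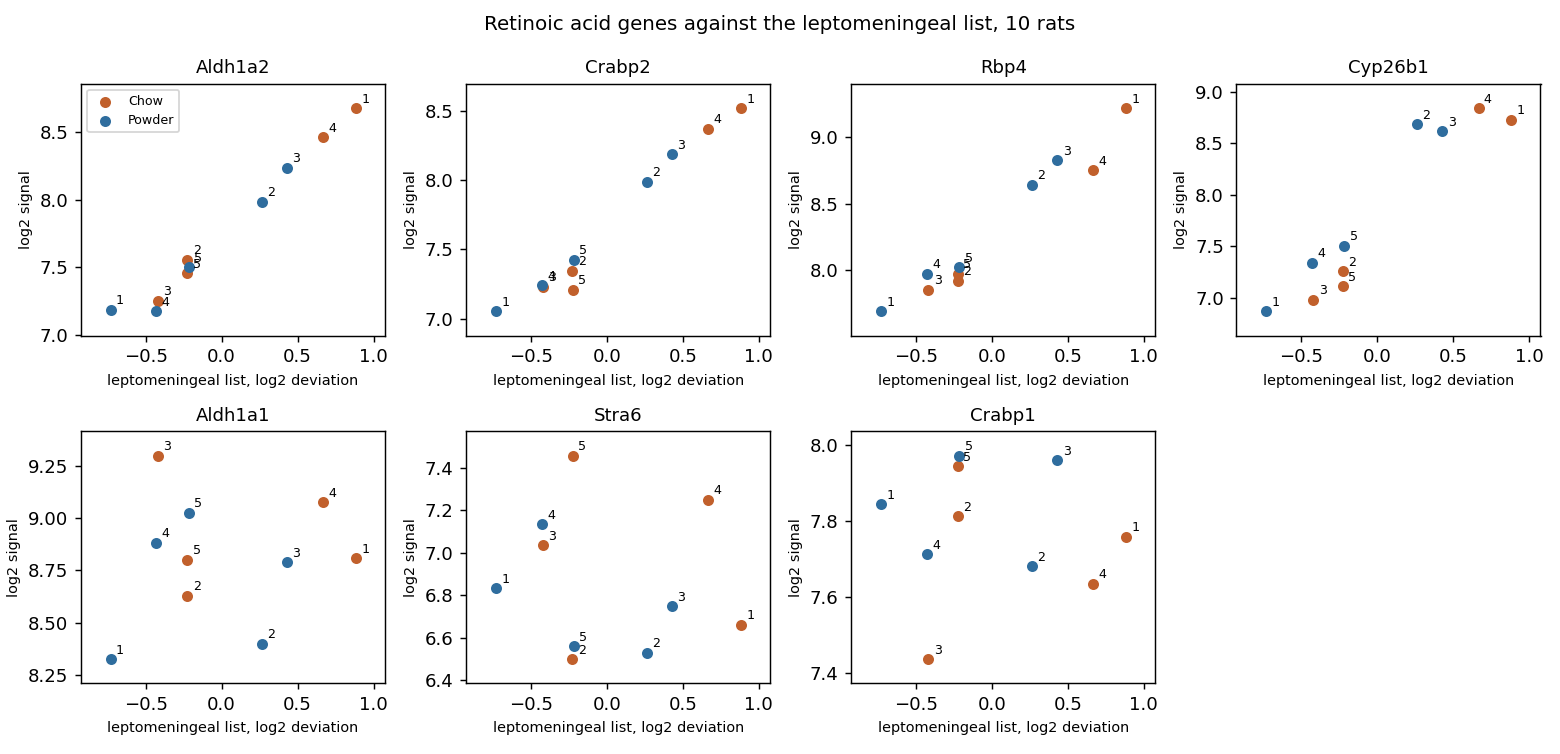
Log2 signal of 7 genes (y axis) against the mean log2 deviation of the 18 varying leptomeningeal markers (x axis) in each of the 10 rats, numbered by replicate and coloured by diet. Aldh1a2, Crabp2, Rbp4 and Cyp26b1 climb with the list in rats of both diets, and Aldh1a1, Stra6 and Crabp1 show no such line.

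The genes whose signal was most like that of each member were looked up among 1015 varying probe sets of 901 genes, by Pearson r over the 10 rats as a description. Nearest to Aldh1a2 were Ogn, the proteoglycan osteoglycin (r = 0.995), the copper carrier Cp (0.992) and the GABA and taurine transporter Slc6a13 (0.992). Slc6a13 (0.996), the sulfate transporter Slc13a4 (0.994) and Ogn (0.993) were nearest to Crabp2. For Rbp4 they were the amino acid transporter Slc6a20a (0.986), the growth factor Igf2 (0.985) and the organic anion transporter Slc22a6 (0.984). For Cyp26b1 they were Ptgds, which makes prostaglandin D (0.975), the cadherin Cdh1 (0.975) and the lysyl oxidase relative Loxl1 (0.973). The 4 high rats carry much of these values, and over the 6 low rats they ran from 0.69 for Loxl1 to 0.97 for Cp. Ogn, Slc13a4, Slc6a20a, Igf2, Slc22a6 and Ptgds are also on the leptomeningeal list.

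The other members had other neighbours. Nearest to Aldh1a1 were the growth factor receptor Ret (r = 0.924), the dopamine transporter Slc6a3 (0.899) and the vesicular monoamine transporter Slc18a2 (0.892), and over the 6 rats with low Cyp26b1 these were 0.942, 0.869 and 0.925. Nearest to Stra6 were the esterase Ces1d (0.933), the melanin enzyme Dct (0.920) and Glcci1 (0.818). Nearest to Crabp1 were the MHC class II gene RT1-Bb (0.865) and the class I genes RT1-CE16 (0.830) and RT1-S3 (0.764). Slc6a3 had a wide range of its own, from 8.35 to 10.19.

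The rest of the pathway was mostly flat. Of 43 further genes of retinoid metabolism, transport, reception and response, 37 had probe sets, 44 in all, of which 4 varied and 39 were flat. Rank products called 3 of the 44 higher and 0 lower, and limma called 0. The 3 were sets of Ttr, Tgm2 and Rarres2, all of them varying. Over all 31042 probe sets 0.947% were called higher and 0.821% lower. Among the 1391 varying ones, 20.5% were called higher and 14.9% lower. The 18 genes of enzymes, among them Cyp26a1, which like Cyp26b1 breaks retinoic acid down, and Lrat, which stores retinol as esters, were flat in all 21 probe sets. So were all 8 probe sets of the receptors Rara, Rarb, Rarg, Rxra, Rxrb and Rxrg, with a largest SD of 0.0002.

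Among carriers, Ttr, the partner of Rbp4 in blood and a marker of the choroid plexus, was called higher, with a difference of 0.43 (SE 0.56). It read 9.29, 7.18, 9.50, 7.54 and 7.86 in Chow 1 to Chow 5 and 8.74, 7.49, 8.36, 6.83 and 7.82 in Powder 1 to Powder 5. Chow 3, Chow 1 and Powder 1 were highest, so Ttr did not share the order of Rbp4. No permuted rank product was as small, and its exact permutation p was 0.468. Rlbp1, a binding protein of retinal, differed by 0.02 (SE 0.07) and was not called.

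Of the listed genes that respond to retinoic acid, 7 had probe sets, and 5 of them were not called. These were Rarres1, Rai14, Ripk4, Cdx1 and Nrip1, whose probe sets were all flat. Tgm2, a transglutaminase, was called higher by 0.16 (SE 0.07, FDR 0.00976). It read 7.88, 7.73, 7.81, 7.98 and 7.83 in Chow 1 to Chow 5 and 7.65, 7.60, 7.88, 7.70 and 7.58 in Powder 1 to Powder 5. All 5 C rats were above the mean of the P group, while Powder 3 was above 4 of them (exact permutation p = 0.0556), and the second probe set of Tgm2 was flat. Rarres2, the gene of chemerin, read 9.13, 8.48, 8.26, 9.04 and 8.38 in Chow 1 to Chow 5 and 8.23, 8.65, 8.87, 8.32 and 8.38 in Powder 1 to Powder 5. It was called higher by 0.17 (SE 0.21, FDR 0.0367), and its highest rats were again Chow 1, Chow 4, Powder 3 and Powder 2.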

How the data were processed

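Hypothalamic RNA of each rat was hybridized to its own array. In R 2.7.2, the authors summarized the scans by factor analysis (the FARMS method) and deposited log2 signals. The method leaves probe sets without shared probe signal almost flat. An array has no read depth, and the spread between 5 rats per group sets the precision.

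Hybridization controls (57 of 31099 probe sets) were removed. Rank products (100 permutations, FDR below 0.05) were computed with numpy 2.4.6 (Python 3.11.15, pandas 2.3.3). Diet was fitted with limma 3.58.1 (R 4.3.3), with Benjamini-Hochberg adjustment over 31042 probe sets. Both were tested on simulated data. Permutation tests of correlations used 100000 resamples over 10 rats and all 720 orders over 6 rats, with the probe set of largest SD for a gene. The members, marker lists, pathway list and neighbour rule (3 most correlated genes) were chosen with earlier results of these data known, and the rule for split rats after the data were seen.

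Alternatives were quantile normalization, median centring, filters on SD and on mean level, leaving out rats, rank sums, scaling by the SD, a stricter threshold of 0.01, trended and robust variances, array weights and a replicate block. Filtering at an SD of 0.1 and leaving out all 4 high rats were added after the data were seen. Symbols come from the array annotation, promoters from RefSeq (GRCr8).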

Additional observations from a re-analysis of the deposited data

How the results depend on the processing

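The rank product calls of the retinoic acid probe sets depended on the setting, and the cause was not tested. Of the 5 higher calls, 0 were left among probe sets with an SD above 0.001 (2306 probe sets, 3 called higher and 7 lower in all), among those with an SD above 0.1, without Chow 1 and Chow 4, without all 4 high rats, with rank sums, with scaling by the SD and with limma. Over all probe sets these settings called 1 higher and 4 lower with an SD above 0.1, 65 and 58 without the 4 high rats, 2 and 6 with rank sums, 33 and 82 with scaling by the SD, and 0 with limma. There were 2 with a mean level above the median, where 8 of the 15 were tested. Over all 15521 probe sets of that filter, 120 were called higher and 97 lower. The 2 lower calls became 0 in the settings that left 0 higher calls, except that there were 5 without Chow 1 and Chow 4, and also 0 at the threshold of 0.01. Leaving out 1 rat gave 1 higher call (without Chow 4) to 7 (without Powder 3) and 0 lower calls (without Chow 3 or Powder 3) to 3 (without Chow 1). Over all probe sets, higher calls fell from 294 to 120 without Chow 1, 155 without Chow 4 and 47 without both. They rose to 355 without Powder 3, the fit with 7 higher calls among the members. Lower calls over all probe sets were 255 with all rats, 229 without Chow 1 and 189 without Powder 3. Without Chow 3 they rose to 328, while the lower calls among the members fell to 0.

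Without Chow 1 and Chow 4, which keeps the 2 high P rats, Aldh1a2 turned to -0.20 and Rbp4 and Crabp2 to -0.32 each. Without all 4 high rats they were at 0.13, 0.02 and 0.02, and none was called. Without single rats, Rbp4 ran from -0.11 (without Chow 1) to 0.26, with -0.02 without Powder 1, and Crabp2 from -0.039 (without Chow 1) to 0.31, with -0.0020 without Chow 4. Cyp26b1 (1384392_at) ran from -0.28 to 0.20, and was above 0 without Chow 2 (0.11), Chow 5 (0.15), Chow 3 (0.18), Powder 3 (0.18) and Powder 2 (0.20). Its other probe set ran from -0.12 to 0.12, above 0 without Chow 2 (0.04), Chow 5 (0.05), Powder 3 (0.07), Chow 3 (0.09) and Powder 2 (0.12), and was 0.012 without all 4 high rats. Aldh1a1 stayed between 0.14 (without Chow 3, the 1 rat whose removal ended its call) and 0.32, Stra6 between 0.10 and 0.34 and Crabp1 between -0.17 and -0.05.

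The replicate numbers did not pair the rats: same-numbered rats correlated in their deviations from the group means at -0.33 to 0.28, and 0 of 5 rats matched their own number best. With the replicate block, rank products called 3 members higher and 6 lower, and limma 0. Over all probe sets this setting called 209 higher and 319 lower. It called Aldh1a2 and Crabp2 lower, although their mean differences stayed at 0.26 and 0.16, and also Rbp4 and Cyp26b1 1376667_at. Limma called 0 members in each of its 20 alternatives, no pair of members passed in 15, and the r of Aldh1a2 with the leptomeningeal list stayed between 0.981 and 0.997 without single rats.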
